A study of Mus musculus with 4 samples.

Results

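H3K9me3 islands on mouse chromosome 11 were described in CD8+ T cells before and after activation. An island is a run of neighbouring windows enriched for trimethylated lysine 9 of histone H3 (H3K9me3), merged into 1 region by the peak caller. All islands on the chromosome were taken, 983 on day 0 and 1732 on day 3, which is 2715 of the 67542 islands listed genome-wide. Chromosome 11 was selected on its ratio of covered bases, day 3 to day 0, the smallest of the 19 autosomes. That ratio was 1.44, and the next smallest were 1.62 on chromosome 7 and 1.67 on chromosome 19. The comparison between days chose the chromosome, so every difference between days given below is a description.

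Wild-type C57BL/6 mice gave the CD8+ T cells, which were naive on day 0 and on day 3 had been in culture with anti-CD3, anti-CD28 and interleukin-2. Native ChIP, in which chromatin is digested with micrococcal nuclease and not cross-linked, was followed by sequencing of 1 H3K9me3 library per day. The input library of each day was not analysed here. The sources used here do not say whether animals were pooled. With 1 library per day there is no replicate check and no test between days. A list of islands does not measure RNA, so the labelled cell type could not be checked against its markers.

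H3K9me3 is laid down by histone methyltransferases such as Setdb1 and the Suv39h enzymes and is bound by heterochromatin protein 1. It is known for silencing repeats, gene-poor sequence and genes of other lineages, and is usually scarce at the CpG-rich starts of active genes. Mouse chromosome 11 is among the gene-rich chromosomes and holds the Th2 cytokine genes, the Ccl chemokine clusters, the Hoxb cluster and the type I keratins.

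Promoters showed which kinds of gene start lay in islands on the chromosome. RefSeq promoter windows of the GRCm38.p6 build, 250 bases before to 50 bases after an annotated start, were found for 1271 of the 1602 protein-coding genes of chromosome 11, 1561 windows in all. Only 21 of them (1.35%) lay wholly inside a day 0 island and 20 (1.28%) inside a day 3 island, beside 1.58% and 2.18% of all autosomal windows. The letters CG, which read the same on both strands and cannot overlap themselves, were counted in each window. At least 1 CG was present in 97.1% of the windows of chromosome 11 and in 95.5% of those of the other autosomes. The median was 17 CG over all windows of chromosome 11, 3 in those inside a day 0 island and 2 in those inside a day 3 island. At least 10 CG were found in 63.7% of all windows of the chromosome, in 5 of the 21 on day 0 and in 2 of the 20 on day 3. On the other autosomes the median was 13 CG over all windows and 3 inside the islands of either day. Islands therefore lay mostly over starts with few CG, and the exceptions are shown first below.

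Of the 250 bases before each start, 5 are printed, chosen after their values were seen. Spata22 and Zpbp2 hold many CG and lay in an island on a single day, Sun3 lay in an island on both days, and Timd4 and Ccl8 are immune genes with few CG. Capitals mark every CG, and each sequence runs 5′ to 3′ on the strand of its gene.
Spata22 (chr11:73329491-73329740, plus strand, day 0): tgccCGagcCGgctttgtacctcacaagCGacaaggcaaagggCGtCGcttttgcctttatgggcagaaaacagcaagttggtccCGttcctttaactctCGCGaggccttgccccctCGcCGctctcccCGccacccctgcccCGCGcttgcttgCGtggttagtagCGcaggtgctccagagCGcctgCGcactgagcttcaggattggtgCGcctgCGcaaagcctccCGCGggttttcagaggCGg
Zpbp2 (chr11:98550847-98551096, plus strand, day 3): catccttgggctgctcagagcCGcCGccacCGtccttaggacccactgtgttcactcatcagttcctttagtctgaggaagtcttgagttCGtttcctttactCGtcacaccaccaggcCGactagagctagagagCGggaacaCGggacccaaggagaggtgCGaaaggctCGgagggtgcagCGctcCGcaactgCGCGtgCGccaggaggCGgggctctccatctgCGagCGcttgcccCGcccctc
Sun3 (chr11:9039592-9039841, minus strand, both days): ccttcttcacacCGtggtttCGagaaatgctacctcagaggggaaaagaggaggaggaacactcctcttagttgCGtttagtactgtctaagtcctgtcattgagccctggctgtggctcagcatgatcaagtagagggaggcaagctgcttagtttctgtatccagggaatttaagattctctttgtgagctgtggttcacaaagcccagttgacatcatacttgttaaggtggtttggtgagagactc
Timd4 (chr11:46810549-46810798, plus strand, day 0): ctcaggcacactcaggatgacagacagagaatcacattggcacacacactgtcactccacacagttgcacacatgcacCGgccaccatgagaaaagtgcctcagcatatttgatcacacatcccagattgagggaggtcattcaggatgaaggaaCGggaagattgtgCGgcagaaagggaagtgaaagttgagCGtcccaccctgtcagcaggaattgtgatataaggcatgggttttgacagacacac
Ccl8 (chr11:82114935-82115184, plus strand, day 3): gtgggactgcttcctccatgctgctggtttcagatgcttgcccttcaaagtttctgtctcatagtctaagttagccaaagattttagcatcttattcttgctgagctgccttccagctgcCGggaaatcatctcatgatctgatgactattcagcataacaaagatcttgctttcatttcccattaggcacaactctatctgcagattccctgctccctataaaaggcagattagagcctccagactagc
The 250 bases hold 22 CG in Spata22, 19 in Zpbp2, 3 in Sun3, 4 in Timd4 and 1 in Ccl8. Spata22, a gene needed for meiotic recombination, had its printed start inside a day 0 island of 9 kb with 294 reads (95% Poisson interval 261 to 330), or 32.7 reads per kb. No day 3 island covered that start, although a day 3 island of 9.60 kb overlapped the gene elsewhere. Zpbp2, which encodes a sperm protein that binds the egg coat, had its start inside a day 3 island of 5.80 kb with 237 reads (208 to 269). Sun3, a nuclear envelope gene of spermatids, had its start inside islands of 5.80 kb with 197 reads on day 0 (170 to 227) and 3.60 kb with 171 reads on day 3 (146 to 199). The start of Timd4, a phosphatidylserine receptor gene of macrophages, lay in a day 0 island of 4.80 kb with 159 reads (135 to 186). The start of Ccl8, a monocyte-attracting chemokine gene, lay in a day 3 island of 4.20 kb with 168 reads (144 to 195). These intervals cover counting error only, and the read counts are not scaled for depth. The day 0 islands at the starts of Spata22, Sun3 and Timd4 held 32.7, 34.0 and 33.1 reads per kb. All were less dense than any day 3 island of the genome (34.1 or more). The absence of a day 3 island at the starts of Spata22 and Timd4 therefore does not show a loss of the mark.

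Other starts inside islands belonged to genes of varied function. On both days these were an annotated start of Morc2a, whose human counterpart works with the HUSH complex in H3K9me3 silencing, one of the ubiquitin ligase subunit gene Wsb1 and one of Acaca, besides Sun3. On day 0, with no day 3 island at the start, they included Flcn with 20 CG in the 300 bases, Gdpd1 with 25, Ankfy1 with 20, Itga3 with 5, the lactoperoxidase gene Lpo with 2 and the keratin gene Krt39 with 9. On day 3, with no day 0 island at the start, they included the potassium channel genes Kcnj2 with 18 CG and Kcnj16 with 8, the sperm gene Zpbp with 7, an annotated start of Ncor1 with 2 and one of Map2k4 with 3.

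Islands on chromosome 11 covered 4.93 Mb or 4.05% of the chromosome on day 0 and 7.12 Mb or 5.84% on day 3. The chromosome ranked 10 of the 19 autosomes in covered share on day 0, counted from the highest, and 18 on day 3. It held 4.91% of the covered bases of all autosomes on day 0 and 3.59% on day 3, while it made up 4.96% of their length. Reads in islands gave the same shares, 166897 reads or 4.91% on day 0 and 370732 reads or 3.56% on day 3. The number of islands was 1.76 times as high on day 3, against 2.41 times on the other 18 autosomes.

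Single islands on chromosome 11 resembled those elsewhere. Median island length was 4800 bp on day 0 on chromosome 11 and on the other autosomes, and 3800 bp and 3600 bp on day 3. Median read density was 34 and 34.1 reads per kb on day 0, and 52.3 and 52.9 on day 3. Of the 983 day 0 islands of chromosome 11, 280 met a day 3 island, or 28.5% (95% Wilson interval 25.8 to 31.4), against 33.9% (33.2 to 34.6) on the other autosomes. Conversely, 17.3% of the day 3 islands met one from day 0 (299 of 1732, 15.6 to 19.1), against 14.8% (14.4 to 15.1) elsewhere. These shares draw on the coverage that chose the chromosome, and the intervals cover counting error only. Bases shared by the lists came to 0.877 Mb. Of the day 0 islands of the chromosome, 509 (51.8%) were less dense than 34.1 reads per kb, the least dense day 3 island of the genome. The absence of a day 3 island over such a day 0 island does not show a loss of the mark.

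Chromosome 11 was second among the autosomes in gene density, with 13.1 protein-coding genes per Mb against 8.11 on the other 18 together. Across the 19 autosomes, gene density and the ratio of covered bases went in opposite directions (Pearson's r = -0.64, Spearman's rho = -0.64). Without chromosome 11 the values were -0.55 and -0.58 over 18 autosomes. The points share the same 2 libraries and differ in length, and these are descriptions of them.

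**Figure D1:**
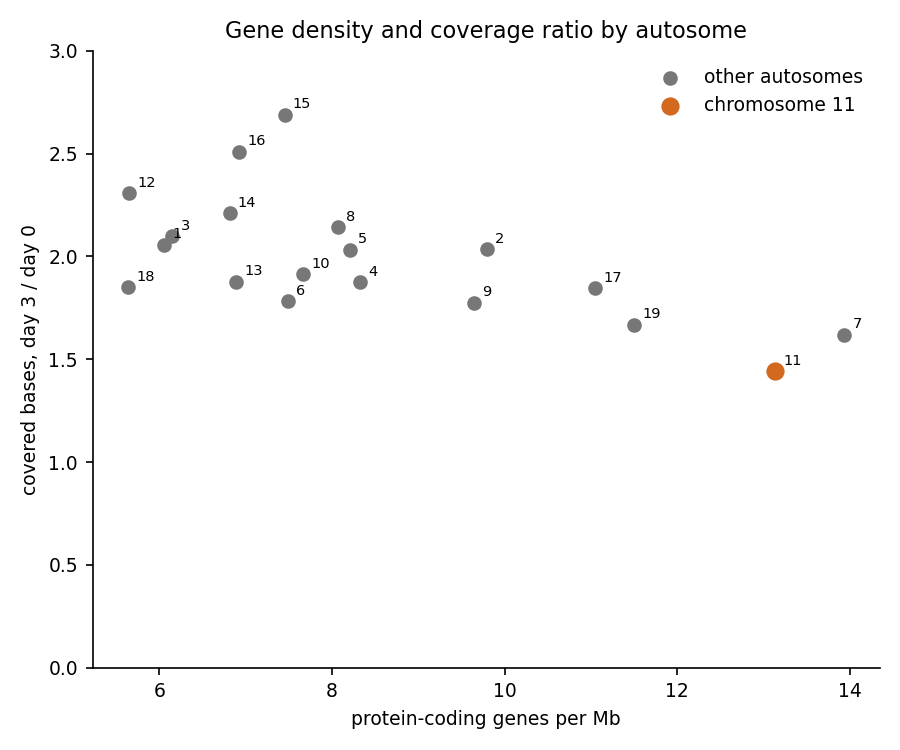
Each point is an autosome, labelled by its number, with protein-coding genes per Mb on the x axis and the ratio of bases covered by H3K9me3 islands, day 3 to day 0, on the y axis. Chromosome 11 (orange) lies lowest at 1.44, with 13.1 genes per Mb.

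The chromosome was cut into 122 windows of 1 Mb to map where coverage differed. Coverage was higher on day 3 in 67 windows (54.9%) and lower in 51 (41.8%), beside 74.3% and 21.7% of all autosomal windows. The remaining 4 windows had no island on either day, and 3 of them are the unassembled first 3 Mb. The windows with more coverage differed by 2859 kb in all and those with less by -674.2 kb. The median window held 35.8 kb on day 0 and 41.2 kb on day 3, against 33.9 and 71.3 kb on the other autosomes. Day 0 coverage per window was thus much alike, and the smaller coverage of chromosome 11 lay in day 3. Coverage of the 2 days was correlated across the windows of the chromosome (Pearson's r = 0.66, Spearman's rho = 0.70, n = 122), which are neighbours on 1 chromosome and not independent.

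Windows with more coverage on day 3 formed long runs in the proximal part of the chromosome, as the plot of windows along the chromosome shows. A run of 12 windows from 21000001 to 33000000 (mm10) held 717.6 kb on day 0 and 1595 kb on day 3, with 67 protein-coding genes. Another run of 12 windows, from 37000001 to 49000000, held 399.8 and 841.8 kb with 49 genes, and 7 windows from 9000001 to 16000000 held 336.2 and 883.2 kb with 15 genes. Most windows of these 3 runs hold few genes.

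The longest run with less coverage comprised 9 windows from 56000001 to 65000000, with 396.6 kb on day 0, 257 kb on day 3 and 144 genes. Runs of 4 windows each lay from 80000001 to 84000000 (188.4 and 121 kb, 59 genes) and from 100000001 to 104000000 (143 and 74.8 kb, 140 genes). A run of 7 windows from 68000001 to 75000000 went against gene density, with 204 genes and 217.4 kb on day 0 and 394 kb on day 3. By blocks of 10 Mb, the ratio was highest from 20000001 to 30000000, at 2.19, and lowest in the last block, which starts at 120000001 and spans only 2 windows, at 0.454. The blocks from 50000001, 60000001 and 110000001 were also below 1, at 0.88, 0.866 and 0.967.

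**Figure D2:**
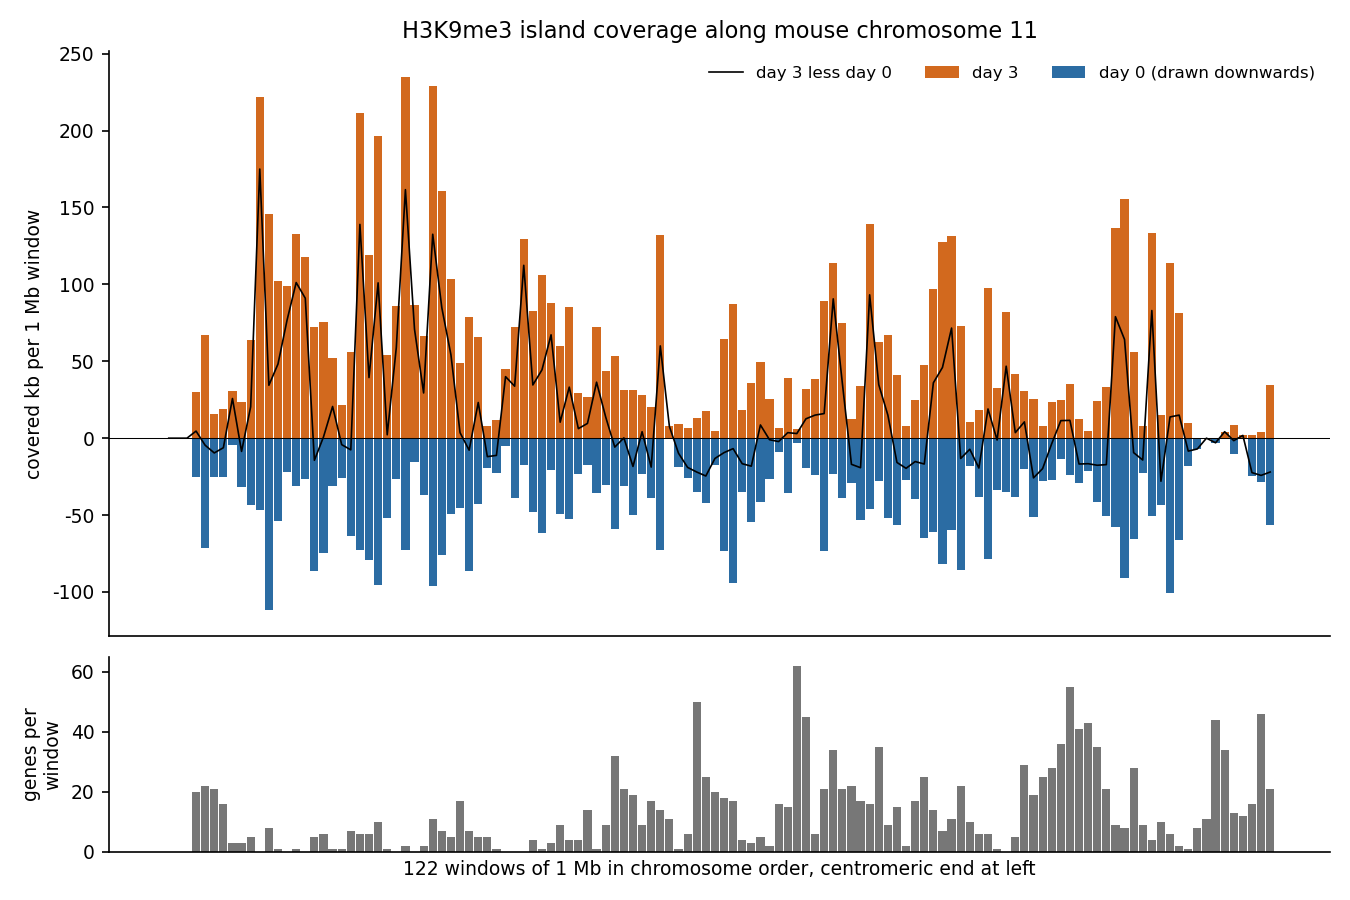
The upper panel shows covered kb per 1 Mb window of chromosome 11 in chromosome order, day 3 upwards (orange), day 0 downwards (blue) and their difference as a line. The lower panel shows protein-coding genes per window. The highest day 3 windows, up to 234.6 kb, lie in the proximal part, and no day 0 window exceeds 111.6 kb.

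Windows were classed by the protein-coding genes whose midpoint they hold, as gene-poor (4 or fewer), middle (5 to 14) and gene-dense (15 or more). Chromosome 11 had 37, 40 and 45 windows of these classes. Gene-dense windows made up 36.9% of its windows and 17.1% of those of the other autosomes. In its gene-poor windows 1170 kb were covered on day 0 and 2486 kb on day 3, a ratio of 2.12. In middle windows 2040 and 3010 kb were covered (1.48), and in gene-dense windows 1724 and 1623 kb (0.941). Coverage was lower on day 3 in 10 gene-poor, 11 middle and 30 gene-dense windows, or 27.0%, 27.5% and 66.7% of each class, beside 9.32%, 25% and 46.1% of all autosomal windows of these classes.

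The same order of classes was found on the other autosomes, with ratios of 2.72, 1.61 and 1.30. In each class chromosome 11 lay below them, in rank 3, 6 and 2 of 19 from the lowest. Over the other autosomes taken singly, the ratio ran from 2.11 to 3.67 in gene-poor windows, from 1.30 to 2.65 in middle ones and from 0.855 to 1.85 in gene-dense ones. When the mean coverage per class of the other autosomes was weighted by the classes of chromosome 11, the ratio was 1.80, between the 2.0 of the other autosomes and the 1.44 of chromosome 11. With the mean coverage per class of chromosome 11 weighted by the classes of the other autosomes, it was 1.63. Both values are arithmetic on the ratio that chose the chromosome, and the cause of its low ratio was not tested.

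**Figure D3:**
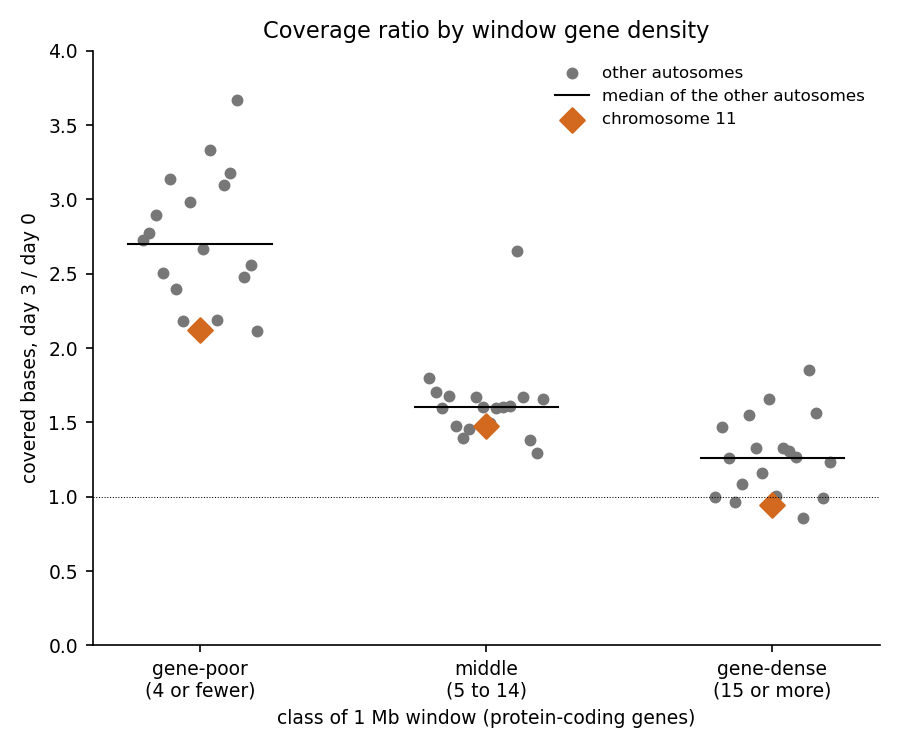
Ratio of covered bases, day 3 to day 0, in windows of 3 gene densities, with 1 grey point per autosome, a line at their median (2.70, 1.60 and 1.26) and chromosome 11 as an orange diamond. Chromosome 11 lies at 2.12, 1.48 and 0.941, inside the range of the other autosomes in each class.

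The order of the classes was the same when only islands of at least the median density of their list were used (2.41, 1.48 and 0.858). It was also the same when the day 3 list was cut to the 19989 islands with most reads (1.06, 0.982 and 0.521). When only day 0 islands at least as dense as the least dense day 3 island were used, it was 7.14, 3.24 and 2.18, so that coverage was higher on day 3 in gene-dense windows too. The second selection removes only day 3 islands and the third only day 0 islands, so each could move a ratio 1 way only. The direction in gene-dense windows therefore depends on which islands are counted, while the order of the classes was the same under these 3 selections. That direction also turned in windows of 2 Mb and with classes by the share in gene bodies, as given in the section on processing.

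The share of day 0 islands met by a day 3 island was lowest in gene-dense windows. On chromosome 11 20.3% (16.4 to 24.9) of the day 0 islands there met a day 3 island, 36.0% (31.5 to 40.8) in middle windows and 27.4% (22 to 33.4) in gene-poor ones, and the first and last of these intervals overlap. On the other autosomes the shares were 24.9%, 33.9% and 37.5%. In gene-poor windows the share was lower on chromosome 11 than elsewhere. Those windows held a mean of 67.2 kb on day 3 on chromosome 11 and 94.6 kb on the other autosomes. The share draws on the coverage that chose the chromosome, so it is no separate result, and the intervals cover counting error only.

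The 8 windows of largest excess on day 3 included 3 with at most 1 protein-coding gene. The window from 10000001 to 11000000, between Abca13 and the secreted protein gene Vwc2, held 10 islands and 47 kb on day 0 and 54 islands and 222 kb on day 3. From 39000001 to 40000000, between Tenm2 and Mat2b, coverage was 17.2 kb on day 0 and 129.6 kb on day 3. The window from 14000001, which holds Pom121l12 alone, had 31.4 and 132.6 kb.

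The other 5 windows held between 2 and 16 protein-coding genes. From 26000001, with the Fanconi anaemia ubiquitin ligase gene Fancl and the kinase gene Vrk2, coverage was 73 kb on day 0 and 234.6 kb on day 3. From 21000001, with Wdpcp, Ugp2 and the ubiquitin ligase gene Peli1, it was 72.6 and 211.6 kb. From 29000001, with Ccdc88a, Ppp4r3b and Eml6, it was 96.2 and 228.8 kb. From 23000001, with Usp34, Papolg and Pus10, it was 95.4 and 196.4 kb. From 77000001, with Ssh2 and the kinase gene Taok1, it was 45.8 and 139 kb, and this was the only gene-dense window of the 8, with 16 genes.

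The 8 windows with the largest excess on day 0 were smaller in size, between 19.8 and 28 kb, and 7 of them were gene-dense. The largest, from 109000001, with the transporter gene Abca8b and the sulfatase gene Arsg, held 43.2 kb on day 0 and 15.2 kb on day 3. From 95000001, with Spop, Igf2bp1 and Zfp652, coverage was 51 and 25.2 kb, although Spop itself carried 20.8 kb on day 3 only. Coverage was 42.2 and 17.6 kb from 59000001, with Mprip, Jmjd4 and Nt5m, and 35.2 and 13.2 kb from 58000001, with Larp1 and Gemin5. The window from 96000001, which holds the Hoxb cluster and Skap1, had 27.6 and 7.80 kb. The last 3 windows of the chromosome were among the 8. From 119000001, with Rptor, coverage was 24.6 kb on day 0 and 2.20 kb on day 3, from 120000001, with Nploc4, Ccdc57 and Gcgr, 28.2 and 4 kb, and from 121000001, with Tbcd, 56.4 and 34.4 kb.

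Of the 1602 protein-coding genes on chromosome 11, 173 (10.8%) carried an island on both days, 116 (7.24%) on day 0 only and 111 (6.93%) on day 3 only, beside 16.9%, 7.18% and 11.9% of all autosomal genes. Genes with any day 0 island made up 18% on the chromosome and 24.1% on all autosomes, and genes with any day 3 island 17.7% and 28.8%. Both shares were lower on chromosome 11, and only that of genes with islands on day 0 alone was near the autosomal one. Gene bodies were shorter on chromosome 11, with a median of 14.3 kb against 17.9 kb on the other autosomes. In gene bodies of 100 kb or more, the share with an island on day 3 only was 5.17% on chromosome 11 and 12.2% elsewhere. In those of 20 to 100 kb it was 12.2% and 18.9%, and under 20 kb it was 4.4% and 7.95%. These length classes were chosen after the data were seen. The shares draw on the coverage that chose the chromosome, so they describe that choice and are no check on it. Protein-coding gene bodies held 53.9% of the covered bases of the chromosome on day 0 and 54.8% on day 3. The ratio of covered bases was 1.47 inside gene bodies and 1.42 outside, whereas on the other autosomes it was 1.87 and 2.13.

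The genes with the largest excess on day 3 were long and had scattered islands. Wdpcp (21571969 to 21898687), a planar cell polarity gene needed for cilia, had 4 islands over 14.6 kb on day 0, and on day 3 it had 22 over 99.2 kb. Its day 0 islands held 35.4 to 39.3 reads per kb and its day 3 islands 44.6 to 76.7, without correction for depth. Usp34, a deubiquitinase gene, had 2 islands over 11.6 kb and then 17 over 78.4 kb (41.8% of its body). The centrosomal gene Cep112 had 31 and 101.2 kb, Tanc2, a postsynaptic scaffold gene, 42.2 and 110.4 kb, and the endocytic gene Ehbp1 27 and 79 kb.

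Some of these genes have known parts in lymphocyte signalling or metabolism. Nf1, whose product switches off Ras, had 23.0 kb on day 0 against 61.4 kb on day 3, and its nested neighbour Evi2b had 3.40 kb on day 3 only. Rapgef6, an activator of the small GTPase Rap, had 19.8 and 61 kb. Acaca, the acetyl-CoA carboxylase of fatty acid synthesis, had 25.2 and 65.4 kb. Ssh2, a cofilin phosphatase gene, had 15.6 and 61.4 kb, and the ubiquitin-conjugating enzyme gene Ube2g1 4.60 and 42.1 kb, which is 53.1% of its body. All 10, ranked by their day 3 excess, stayed higher on day 3 with the day 3 list cut to the length of the day 0 list. They also did so with islands of at least the median density. There the difference was smaller in all but Tanc2 (68.6 kb), and smallest in Nf1 (4.60 kb). The third selection removes only day 0 islands, so it could not lower a day 3 excess.

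The genes with the largest excess on day 0 differed by less, between 11.8 and 19.6 kb. Slit3, an axon guidance gene, carried 5 islands over 19.6 kb on day 0 and none on day 3, but only 2 of them, over 6.20 kb, were at or above the least dense day 3 island (34.1 reads per kb). Sh3pxd2b, a podosome adaptor gene, had 3 islands over 15.2 kb on day 0 and none on day 3, of which 2, over 9.40 kb, reached that density. Myh10, a non-muscle myosin gene, was covered over 13.4 kb and the endocytic adaptor gene Epn2 over 12.9 kb, both on day 0 only. Their day 0 islands were all at or above the least dense day 3 island of the genome, at 35.6 to 39.3 reads per kb in Myh10 and 34.7 to 40.8 in Epn2. On chromosome 11 itself the least dense day 3 island held 35.65 reads per kb, and the lower quartile was 48.5. These day 0 islands were thus less dense than most day 3 islands, without correction for depth, and do not show a loss of the mark. Col23a1, a collagen gene (11.8 kb, of which 4 kb reached that density), and Abca8b (12.8 kb) also had day 0 islands only, but both islands of Abca8b, at 31.3 and 33.6 reads per kb, fell below the least dense day 3 island.

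Asic2, an acid-sensing channel gene, had 27.4 kb on day 0 against 9 kb on day 3, the growth factor receptor gene Egfr 28.3 and 14.2 kb, Akap10 19.4 and 5.80 kb and Specc1 50.4 and 37.4 kb. With the least dense day 0 islands left out, the difference (day 3 less day 0) turned to 9 kb in Asic2, 2.89 kb in Egfr and 15.2 kb in Specc1 and was 0 in Akap10.

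**Figure D4:**
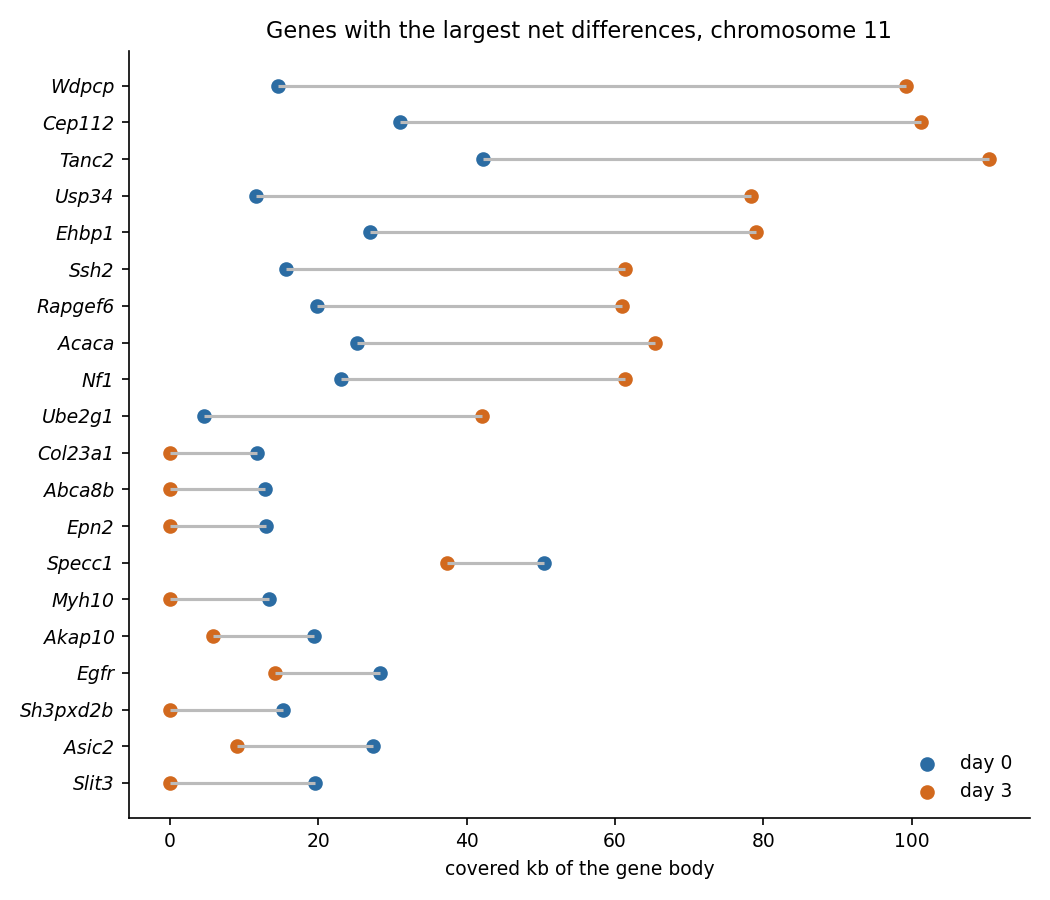
Covered kb of the gene body on day 0 (blue) and day 3 (orange), 1 library each, for the 10 genes with the largest excess on day 3 (upper rows) and the 10 with the largest excess on day 0 (lower rows). The day 3 excess reached 84.6 kb in Wdpcp and the day 0 excess 19.6 kb in Slit3.

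The genes covered to a high share on both days were Spata22 (64.1% of the body on day 0, then 37.9%), Wsb1 (35.2% and 37.8%), Klhl11 (40.9% and 34.5%), the protein phosphatase subunit gene Ppp4r3b (33.9% and 70.3%) and the poly(A) polymerase gene Papolg (33.6% and 40.4%). Without the least dense day 0 islands, the difference (day 3 less day 0) turned to 7.59 kb in Spata22 and 5.40 kb in Klhl11. The longest island of the chromosome on day 3 spanned 24.8 kb (29452801 to 29477600) in Ccdc88a, with 1342 reads (1271 to 1416). The day 0 islands covered 15.6 kb of it. On day 0 the longest spanned 15.8 kb (110279401 to 110295200) in Abca5, with 508 reads (465 to 554), and day 3 islands covered 0.2 kb of it.

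The densest island was the same on both days and lay at the proximal edge of the assembled sequence, 29.3 kb before Sfi1 on day 0. It ran from 3100201 to 3102600 on day 0, with 244 reads (214 to 277) or 102 reads per kb, and to 3102400 on day 3, with 305 reads (272 to 341) or 139 reads per kb. No other island on the chromosome exceeded 60.8 reads per kb on day 0 or 95 on day 3.

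Genes were also examined in 15 lists of chromosome 11 genes and 6 families. Of the 164 listed genes found on the chromosome, 22 carried an island on both days, 21 on day 0 only and 11 on day 3 only, and 110 had none. Those with any island made up 32.9% of the listed genes, beside 25% of all protein-coding genes of the chromosome. Of these, 9.30% carried an island where the body was under 20 kb, 41.9% at 20 to 100 kb and 82.8% at 100 kb or more. The median difference in covered bases was 0 for all protein-coding genes of the autosomes and for every list except those of Abca and imprinted genes.

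Among 15 genes of lymphoid transcription factors, 4 had an island on both days, 3 on day 0 only and 1 on day 3 only, beside 10.8%, 7.24% and 6.93% of the genes of the chromosome. Rel, which encodes the NF-kappaB subunit c-Rel, was covered over 3.40 kb on day 0 (1 island, 125 reads) but over 11.8 kb, 34.6% of its length, on day 3 (2 islands, 647 reads). With islands of at least the median density of their list, the difference (day 3 less day 0) turned to -1.20 kb in Rel and -4 kb in Ikzf1. Ncor1, a corepressor gene, had 9.40 kb on day 0 and 31.8 kb on day 3. Ikzf1, the Ikaros gene, carried 1 island on each day, of 4 and 5 kb. Its relative Ikzf3, which encodes Aiolos, had 4.20 kb on day 0 only, in an island of 31.7 reads per kb, less dense than any day 3 island. Bcl11a had 3.60 kb on day 0 only, at 42.5 reads per kb. Stat3 had 3.80 kb on day 3 only. Tcf7, Tbx21, Irf1, Stat5a, Stat5b, Rara and Trp53 had no island on either day.

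Of 19 genes of T cell signalling and trafficking, 5 had islands on both days, 2 on day 0 only and 1 on day 3 only. The shares over all genes of the chromosome were 10.8%, 7.24% and 6.93%. The other 11 had none, so that 42.1% carried any island, beside 25% of all genes of the chromosome. The list had a median body of 19.5 kb, against 14.3 kb over the chromosome. Dock2, which drives lymphocyte migration, had 12.8 kb on day 0 against 32.8 kb on day 3, and the protein kinase C gene Prkca 13.6 and 20.4 kb. The difference turned to -0.60 kb in Dock2 with islands of at least the median density, and to -2.60 kb in Prkca with the day 3 list cut to the length of the day 0 list. Lcp2, the SLP-76 adaptor gene, and Itgae, the integrin CD103 gene, each had 3.80 kb on day 0 only, at 31.1 and 36.8 reads per kb. Rptor, the gene of the mTORC1 subunit raptor, had 3 islands over 13.4 kb on day 0 and 1 over 2.20 kb on day 3. Ccr7, Cxcl16, Socs3 and Grb2 were among those with no island.

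Cytokine and receptor genes of the chromosome lie in several clusters. The Th2 list holds 13 genes of the cytokine locus and its neighbours. Of these, 1 had islands on both days, 3 on day 0 only and 2 on day 3 only. Over all genes of the chromosome the shares were 10.8%, 7.24% and 6.93%. The summed coverage of the 13 listed genes was 26.8 kb on day 0 and 9.56 kb on day 3. The list includes Il9r, which lies apart at 32187544, and omits Slc22a21, between Slc22a5 and Slc22a4. Slc22a21 went the other way, with 3.80 kb on day 0 and 7.60 kb on day 3. Il4, the defining Th2 cytokine gene, had 4 kb (64.5% of its body), its neighbour Kif3a, a kinesin gene, 11.4 kb and the transporter gene Slc22a4 7.60 kb, all on day 0 only, and Rad50 had 3.80 and 2.40 kb. The Il4 island, with 31.5 reads per kb, and both Kif3a islands, with 30.3 and 31.7, fell below the least dense day 3 island (34.1). With day 0 islands under that density left out, the sum over the list was 7.60 kb on day 0 against 9.56 kb, so its direction turned. Il3, Csf2, Il5 and Il13 had no island. Among the TIM receptor genes and Il12b, Havcr1 had 4.40 kb on day 0 only, at 31.1 reads per kb, Timd4 3.01 and 5 kb, Il12b 3 kb on day 3 only, and Havcr2 and Timd2 none. Ccl8 was the only 1 of 11 Ccl genes with an island (9.09%), beside 9.30% of the genes of the chromosome with bodies under 20 kb. None of 9 interferon-induced genes, mostly of GTPases, 8 Cd300 receptor genes or 10 Hoxb genes had an island on either day. Their median bodies were 8.04, 12.2 and 3.97 kb long, a length class in which 9.30% of the genes of the chromosome carried an island. Of 8 Slfn genes, Slfn4 had 10.8 kb (71.8% of its body) on day 0 only, in an island of 31.4 reads per kb, and Slfn14 1.60 kb on day 3 only. These were 25% of the 8, beside 25% of all genes of the chromosome and 9.30% of those with bodies under 20 kb.

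Genes of other lineages were counted in the same way. Of 17 genes listed for B cells, myeloid and red cells, not all of them particular to these cells, 3 carried an island, all on day 0 only. These were 17.6% of the list, whose median body was 10.6 kb. The share was 25% over all genes of the chromosome and 9.30% over those with bodies under 20 kb. Cd79b, a subunit of the B cell antigen receptor, lay wholly in a day 0 island of 7.20 kb (209 reads, 29.0 reads per kb), Lpo had 4.91 kb (32.7 reads per kb) and Pecam1 6.28 kb. With day 0 islands below the least dense day 3 island left out, 1.48 kb in Pecam1 remained. Ebf1, a transcription factor gene of B cells, was counted with the lymphoid transcription factors. It had 29 kb on day 0 and 41.8 kb on day 3. With the day 3 list cut to the length of the day 0 list, the difference in Ebf1 (day 3 less day 0) turned to -8.40 kb. Of 15 neuronal genes, whose bodies had a median of 316 kb, 6 had islands on both days, 3 on day 0 only and 2 on day 3 only. Together these were 73.3% of the list, beside 82.8% of the genes of the chromosome with bodies of 100 kb or more. Coverage was lower on day 3 in 6 of the neuronal genes and higher in 5. It summed to 110.2 kb on day 0 against 87.4 kb, or to 17.8 kb against 87.4 kb without the least dense day 0 islands. Asic2 and Slit3, given above, were the neuronal genes with the largest excess on day 0, and Gabrb2, a GABA-A receptor gene, with 4.60 and 24.8 kb, had the largest on day 3. Of 27 type I keratin genes, Krt25 and Krt39 had an island, on day 0 only and at 28.5 and 28.9 reads per kb, and of 23 keratin-associated genes Krtap4-1, on day 3 only. These were 7.41% and 4.35% of the families, beside 9.30% of the genes of the chromosome with bodies under 20 kb.

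The 5 Abca transporter genes stand in a row. Abca8b had 12.8 kb on day 0 only and Abca8a 4.60 kb on day 3 only. On day 0 and day 3 in turn, Abca9 had 8.47 and 2.80 kb, Abca6 8.80 and 26.8 kb, and Abca5 19.6 and 25.8 kb. The median difference over the 5 was 4.60 kb, and over the 4 imprinted genes it was -1.75 kb. Of the imprinted genes, Grb10 had 16.2 kb on day 0 and 22.2 kb on day 3. Commd1 had 7.80 kb and Ddc 3.50 kb, both on day 0 only. Without day 0 islands below the least dense day 3 island, 3.40 kb remained in Commd1 and none in Ddc. The retrogene Zrsr1, which lies within Commd1, had no island.

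Of 83 olfactory receptor genes, 4 had an island on day 0 only, 5 on day 3 only and none on both, together 10.8% of them. That is near the 9.30% of genes of the chromosome with bodies under 20 kb, and the 83 had a median body of 0.954 kb. Olfr314, 1 of the 4, was covered over only 0.062 kb. The 5 on day 3 only were Olfr1, Olfr389, Olfr23, Olfr397 and Olfr399, which lie between 73395076 and 74054778. Olfr391, in the same stretch, had 0.584 kb on day 0 only. The window from 73000001, named after its values were seen, holds 34 genes and had 23 kb on day 0 and 113.6 kb on day 3. It also holds Zfp735, a zinc finger gene with 3 islands and 8.01 kb covered on day 3 only. Of 21 Zfp genes, 2 had islands on both days, 1 on day 0 only and 4 on day 3 only. Together these were 33.3% of the family, beside 25% of all genes of the chromosome and 9.30% of those with bodies under 20 kb. The family had a median body of 15.6 kb. Of 18 cell cycle and housekeeping genes, Cdc27 had 5.40 kb on day 0 and 12 kb on day 3 (-5.40 kb in difference with islands of at least the median density), Brca1 7.60 kb on day 0 only, Ccng1 3 kb on day 3 only, and 15 had none. Thus 16.7% carried an island, beside 25% of all genes of the chromosome and 9.30% of those with bodies under 20 kb. The 18 had a median body of 6.99 kb.

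Of 83 miRNA hairpins on chromosome 11, none lay in a day 0 island and 2 in a day 3 island, beside 2.29% and 5.77% of all autosomal hairpins. They are Mir1933 in Ugp2, which encodes a UDP-glucose pyrophosphorylase and was covered over 32.9 kb (65.6% of its body) on day 3 only, and Mir5119 in Cdk12, a kinase gene of transcription elongation with 3.40 kb on day 0 and 19.2 kb on day 3. Their RefSeq mature sequences are given with the seed, bases 2 to 8, in capitals.
mmu-miR-1933-5p: aGUCAUGGuguucggucuuaguuu
mmu-miR-1933-3p: cCAGGACCaucagugugacuau
mmu-miR-5119: cAUCUCAUccuggggcugg
The 3 seeds differ from one another.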

How the data were processed

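Lists of islands deposited by the authors, 1 ChIP library per day, were the data. Per the submitters' processing notes, Bowtie2, SICER version 1.1 and build mm10 were used. Threshold, gap and use of input in calling: not given in the sources used here. Each island carries 1 deposited whole number without a column name, read here as a raw count of reads, not scaled for depth, length or input. Total depth is unknown. Borders fell on multiples of 200 bp.

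Covered bases, overlaps (minimum 1 bp) and counts per window and gene were computed in Python 3.11.15 with numpy 2.4.6, pandas 2.3.3 and scipy 1.17.1. The interval code was tested on simulated islands. Genes, promoters and miRNAs came from RefSeq tables of GRCm38.p6, the same assembly as mm10. In it, 328 gene rows placed in the first 3 Mb, where no sequence is assembled and no island lay, carry scaffold coordinates and were left out. Intervals are 95% Wilson or exact Poisson.

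Named were the 10 protein-coding genes with the largest net difference in each direction, the 5 with the highest share on both days, the 8 windows per direction, the longest and densest islands and list members with an island. Predicted genes were left out, and some genes are not reported here. The chromosome, lists and rules were chosen with earlier results of these data known.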

Additional observations from a re-analysis of the deposited data

How the results depend on the processing

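No paired analysis was possible because each day has 1 ChIP library, and no replicate could be left out for the same reason. With the day 3 list cut to the 19989 islands with most reads, the ratio of covered bases on chromosome 11 was 0.841 (1.06, 0.982 and 0.521 in gene-poor, middle and gene-dense windows), 33 windows were covered more and 81 less on day 3, 47 genes had an island on day 3 only, and 16.8% of day 0 islands were overlapped. With islands of at least the median density of their list, the ratio was 1.41 (2.41 in gene-poor and 0.858 in gene-dense windows) and the overlap 18.2%. With only day 0 islands at least as dense as the least dense day 3 island, the ratio was 3.52 (7.14, 3.24 and 2.18), 104 windows were covered more and 14 less, and 66 genes had an island on day 0 only and 170 on day 3 only. With each day divided by its covered bases over all autosomes, an alternative chosen after seeing the data, the ratio was 0.730 (1.08, 0.747 and 0.476), 28 windows were covered more and 90 less. In windows of 2 Mb, 37 were covered more and 23 less, with ratios of 1.89 in gene-poor and 1.04 in gene-dense windows. In windows of 0.5 Mb, 132 were covered more and 96 less, with ratios of 2.02 and 0.870. With classes by the share of the window in gene bodies, split at the autosomal tertiles, the ratios were 2.04, 1.32 and 1.24. When at least 50% of the island had to be covered, 18.1% of day 0 islands were overlapped. Under the other alternatives run, these results kept their direction and stayed close to the reported values. Fewer islands enter the first 3 alternatives by construction, and for the rest the cause was not tested.

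Of the 96 named and listed genes with an island, the sign of the difference (day 3 less day 0) turned in 5 with equal list lengths: Car10 (-5 kb), Ebf1 (-8.40 kb), Prkca (-2.60 kb), Tenm2 (-5.80 kb) and Zfp867 (-2.40 kb). It turned in 7 with the density limit: Asic2 (3.60 kb), Cdc27 (-5.40 kb), Dock2 (-0.60 kb), Ikzf1 (-4 kb), Klhl11 (5.40 kb), Rel (-1.20 kb) and Slc22a21 (-3.80 kb). It turned in 9 with the common density floor: Asic2 (9 kb), Dnah9 (5.40 kb), Egfr (2.89 kb), Kcnip1 (4.60 kb), Klhl11 (5.40 kb), Shisa6 (5 kb), Skap1 (4.20 kb), Spata22 (7.59 kb) and Specc1 (15.2 kb). Coverage vanished on both days in 15, 32 and 14 genes. The unknown depth, the input libraries not analysed here and the single library per day limit every difference between days.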

Other observations

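Of 739 lncRNA genes on chromosome 11, 29 carried an island on both days, 63 (8.53%) on day 0 only and 51 (6.90%) on day 3 only. On the other autosomes 8.22% of 11585 lncRNA genes had an island on day 0 only and 12.9% on day 3 only. The lncRNA genes with the largest excess on day 3 were 5730522E02Rik, with 28.2 kb on day 0 and 80.6 kb on day 3, Gm12132, with 8.40 and 38 kb, 4930554G24Rik, with 27.8 kb on day 3 only, and Brip1os, with 5 and 29.6 kb. The largest excess on day 0 was in Bcas3os1, of which 15.4 kb (87.8%) lay in a day 0 island and none in a day 3 island. That island, the second longest of the chromosome on day 0, held 438 reads (95% Poisson interval 398 to 481) at 28.4 reads per kb, less dense than any day 3 island. Gm51906 had 12 kb (27.7%) covered on day 0 only. These lncRNA genes were ranked after the data were seen, and the differences are between 1 library per day.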
